A study of Mus musculus with 12 samples.

Results

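The myeloid C-type lectin receptor genes Clec4d, Clec4e, Clec4n, Clec7a, Clec5a, Clec4a1, Clec4a2, Clec4a3 and Clec12a were followed through 12 mouse bulk RNA-seq libraries. Members were the entries of the deposited gene matrix whose mouse Ensembl identifier carried one of these symbols. All 9 were found, each once, among 54104 entries with an Ensembl identifier. The libraries fell into 4 groups of 3, labelled Ly6C tumor, Ly6C spleen, Ly6G tumor and Ly6G spleen. Ly6C and Ly6G are surface proteins used in mice to sort monocytic and granulocytic myeloid cells, and the study describes the cells as monocytic and polymorphonuclear myeloid-derived suppressor cells. The study's title concerns a MAPK pathway inhibitor, but no label marks a library as treated. The tumor model, mouse strain, age, sorting gate and number of animals per library are not stated in the labels. Because nothing says that the 3 libraries of a group came from separate animals, p-values measure only the spread between these libraries.

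C-type lectin receptors bind sugars, lipids or proteins of microbes and damaged cells. Dectin-1 (Clec7a) carries its own activating motif for the kinase Syk, whereas Mincle (Clec4e), MCL (Clec4d), Dectin-2 (Clec4n) and MDL-1 (Clec5a) signal through the adaptors FcRγ (Fcer1g), DAP12 (Tyrobp) or DAP10 (Hcst). Syk then acts through CARD9, BCL10 and MALT1 on NF-κB. The receptors DCIR (Clec4a2) and MICL (Clec12a) carry inhibitory motifs that recruit phosphatases such as SHP-1 (Ptpn6).

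All 9 genes lie on chromosome 6 of GRCm38, per GENCODE M21. The Clec4 members occupy 368.0 kb, in the order Clec4a1 (chr6:122921848-122934619, plus strand, ENSMUSG00000049037), Clec4a3 (chr6:122952515-122969875, plus, ENSMUSG00000043832), Clec4a2 (chr6:123106428-123143999, plus, ENSMUSG00000030148), Clec4n (chr6:123229843-123247021, plus, ENSMUSG00000023349), Clec4d (chr6:123262111-123275265, plus, ENSMUSG00000030144) and Clec4e (chr6:123281789-123289870, minus, ENSMUSG00000030142). Clec4n, Clec4d and Clec4e sit side by side at one end of this cluster. Clec12a (chr6:129342691-129365303, plus, ENSMUSG00000053063) and Clec7a (chr6:129461591-129472779, minus, ENSMUSG00000079293) lie within 130.1 kb of each other. Clec5a (chr6:40574894-40585821, minus, ENSMUSG00000029915) stands apart. GENCODE lists Clec7a as a polymorphic pseudogene and the other 8 as protein coding. Of the 50-base stretches of Clec4a2 exons, 6.69% also occur in transcripts of other genes, against 0.686% for Clec4n, 0.402% for Clec12a and none for the other 6 members, so the Clec4a2 values are the least certain. The processed pseudogene Gm44132 also overlaps Clec4a2 on the same strand and reached 1.68 FPKM.

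Promoter sequences from RefSeq (GRCm38.p6) were held for 8 of the 9 genes, as 10 windows of the 250 bases before a start. Both strands were searched for GAGGAA (a core bound by PU.1), TTNNGCAA (C/EBP-type), TGANTCA (AP-1), ACGTG (hypoxia response core) and an NF-κB-type motif. Of all 32851 mouse promoter windows of that length, 23.3% hold GAGGAA, 9.56% TTNNGCAA, 6.75% TGANTCA, 16.6% ACGTG and 17.6% the NF-κB-type motif. GAGGAA was found in 7 of the 8 member genes, TTNNGCAA in Clec4e and Clec12a, and each of the other motifs in 1. The background shares are per window, whereas a member gene was counted if any of its windows matched. Clec4a3 held GAGGAA only in its second window. Clec12a and Clec4e, the genes with TTNNGCAA, are shown with all motif matches in capitals. In the first sequence the capitals mark, in order, the AP-1 and C/EBP-type motifs and then the PU.1 core on either strand. In the second they mark the PU.1 core on the reverse strand, the C/EBP-type motif, the PU.1 core again and the hypoxia response core on the reverse strand. No motif matches overlapped between kinds in either window, and a match describes letters only.
Clec12a (chr6:129349994-129350243, plus): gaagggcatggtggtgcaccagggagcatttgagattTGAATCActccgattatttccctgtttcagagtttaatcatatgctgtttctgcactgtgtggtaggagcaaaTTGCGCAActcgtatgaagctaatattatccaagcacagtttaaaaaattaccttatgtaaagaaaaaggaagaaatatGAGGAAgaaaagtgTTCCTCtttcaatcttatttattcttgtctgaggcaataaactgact
Clec4e (chr6:123289872-123290121, minus): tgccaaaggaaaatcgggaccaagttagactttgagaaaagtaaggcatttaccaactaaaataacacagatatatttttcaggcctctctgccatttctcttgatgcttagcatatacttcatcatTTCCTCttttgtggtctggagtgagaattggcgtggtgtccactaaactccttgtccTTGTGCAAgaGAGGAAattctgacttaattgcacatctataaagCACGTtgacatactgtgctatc

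Clec4a1 and Clec4a3, neighbours in the cluster whose levels correlated at 0.987 over the 12 libraries, had the best local alignment of all pairs of member promoters, with 48 identical bases over 55 aligned columns (87.3%). Capitals mark the stretch covered by exact matches of at least 12 bases between them, 29 bases long in Clec4a1 and 30 in Clec4a3. It contains the reverse strand of GAGGAA. The Clec4a3 window is the second of 2 that RefSeq gives for this gene.
Clec4a1 (chr6:122921598-122921847, plus): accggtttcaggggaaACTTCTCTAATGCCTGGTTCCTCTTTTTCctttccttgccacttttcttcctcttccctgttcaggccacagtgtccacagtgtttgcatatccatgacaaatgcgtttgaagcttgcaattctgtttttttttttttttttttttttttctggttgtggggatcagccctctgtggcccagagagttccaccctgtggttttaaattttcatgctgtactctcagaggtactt
Clec4a3 (chr6:122952394-122952643, plus): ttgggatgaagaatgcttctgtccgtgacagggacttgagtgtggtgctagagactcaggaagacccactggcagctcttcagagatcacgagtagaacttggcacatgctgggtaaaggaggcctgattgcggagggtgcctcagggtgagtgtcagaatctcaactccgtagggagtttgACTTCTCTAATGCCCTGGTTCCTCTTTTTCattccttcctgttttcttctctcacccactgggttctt

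Levels are FPKM, fragment counts scaled to gene length and to the library's mapped total, as deposited. Differences are on the log2(FPKM + 1) scale, which understates the change of genes near or under 1 FPKM, and were tested with limma over the 13610 genes that reached 1 FPKM in 3 or more libraries. The threshold was 0.05 after Benjamini-Hochberg adjustment over all of them. A gene nearly absent from spleen or from tumor libraries could pass the 1 FPKM filter through the other tissue alone. That fixed the direction of its tumor difference. Total FPKM per library ranged between 331681 and 449309, the fragment depth is unknown, and libraries of a group correlated at r between 0.970 and 0.986. The labels were checked first. Ly6g averaged 12.96 ± 1.03 FPKM in Ly6C tumor and 166 ± 40.0 in Ly6C spleen libraries, against 39.1 ± 13.02 in Ly6G tumor and 651 ± 63.6 in Ly6G spleen libraries (SD, n = 3 each). It was lower under the Ly6C label in both tissues, at -1.99 ± 0.22 on the log2 scale in spleen (SE; adjusted p = 0.000155, limma) and -1.48 ± 0.22 in tumor (0.00252). Ly6c2 did not pass between the labels in either tissue, at 7.05 ± 0.976 FPKM in Ly6C tumor, 247 ± 24.8 in Ly6C spleen, 6.69 ± 1.27 in Ly6G tumor and 214 ± 38.6 in Ly6G spleen libraries. Neutrophil genes were high under both labels in spleen, where S100a9, a calcium-binding protein of granules and cytosol, averaged 39640.5 ± 9138 FPKM in Ly6C and 77001 ± 8825 in Ly6G libraries.

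The tumor libraries also held less RNA of leukocyte genes and more of adherent-cell genes. The geometric mean of 20 pan-leukocyte genes was 4.56 to 9.63 FPKM in Ly6C tumor libraries, against 101 to 111 in Ly6C spleen libraries. It was 10.7 to 19.3 FPKM in Ly6G tumor libraries, against 106 to 109 in Ly6G spleen libraries. All 20 of these genes fell in Ly6C tumor libraries and 19 of 20 in Ly6G tumor libraries. All 14 neutrophil genes fell under both labels, and their summed FPKM was 1401 to 2658 in Ly6C tumor against 65664 to 102914 in Ly6C spleen libraries, and 4342 to 8615 in Ly6G tumor against 126976 to 161226 in Ly6G spleen libraries. Of 16 epithelial, fibroblast and matrix genes 13 were tested, and 9 rose in Ly6C tumor and 12 in Ly6G tumor libraries. The shares over all genes tested were 46.2% rising and 30.5% falling in Ly6C, and 51.5% rising and 24.7% falling in Ly6G. Listed genes nearly absent from spleen libraries passed the expression filter through tumor libraries alone and could only rise. Part of these counts was thus set by the filter. The summed FPKM of the 16 genes was 1562 to 1613 in Ly6C tumor against 236 to 380 in Ly6C spleen libraries. It was 1314 to 1399 in Ly6G tumor against 93.9 to 116 in Ly6G spleen libraries. Krt19, Dcn and Lum were listed at 0 in all Ly6C spleen libraries and Epcam in all Ly6C tumor libraries. Keratin 8 (Krt8), an epithelial gene, averaged 670 ± 96.9 FPKM in Ly6C tumor against 0.0694 ± 0.0812 in Ly6C spleen libraries, and 483 ± 113 in Ly6G tumor against 0.136 ± 0.109 in Ly6G spleen libraries. Krt18 averaged 207 FPKM in Ly6C tumor libraries. The other epithelial genes listed, Krt19, Cdh1 and Epcam, averaged 0.0386, 0.260 and 0 FPKM there, so the epithelial genes were not all high in tumor libraries. All 8 B cell genes fell under both labels, with sums of 5.33 to 8.76 FPKM in Ly6C tumor against 255 to 392 in Ly6C spleen libraries, and 5.35 to 8.57 in Ly6G tumor against 749 to 1299.5 in Ly6G spleen libraries. Mitochondrially encoded genes, whose share is a sign of RNA and cell quality, took 3.08% to 7.88% of total FPKM in Ly6C tumor against 1.70% to 2.52% in Ly6C spleen libraries, and 5.45% to 11.99% in Ly6G tumor against 2.50% to 2.89% in Ly6G spleen libraries. In bulk RNA, fewer cells of a type and less RNA per cell cannot be told apart, and the part that cell make-up or RNA quality plays in the receptor levels was not tested. The tumor differences are therefore also given after rescaling every library to its pan-leukocyte mean, which moved the median of all genes tested to 3.19 in Ly6C and 2.34 in Ly6G. A positive value under it is therefore common to most genes and is to be read against that median.

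In Ly6C tumor libraries 2 of the 9 receptor genes rose and 5 fell relative to Ly6C spleen libraries. Of all genes tested, 46.2% rose and 30.5% fell in this comparison, so the share of receptor genes that rose was below the background and the share that fell above it. In Ly6G tumor libraries none rose and 5 fell, where 51.5% of all genes rose and 24.7% fell. At an unadjusted p under 0.05 the count of receptor genes that were higher in Ly6G tumor libraries was also 0. The same 5 genes, Clec5a, Clec4a2, Clec12a, Clec4a1 and Clec4a3, were lower under both labels. In each of them all 3 tumor libraries lay below all 3 spleen libraries, as in 31.5% of all genes tested in Ly6C and 26% in Ly6G. The median difference over the 9 genes was -2.07 in Ly6C and -1.72 in Ly6G, beside 0.27 and 0.43 over all genes tested.

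**Figure D1:**
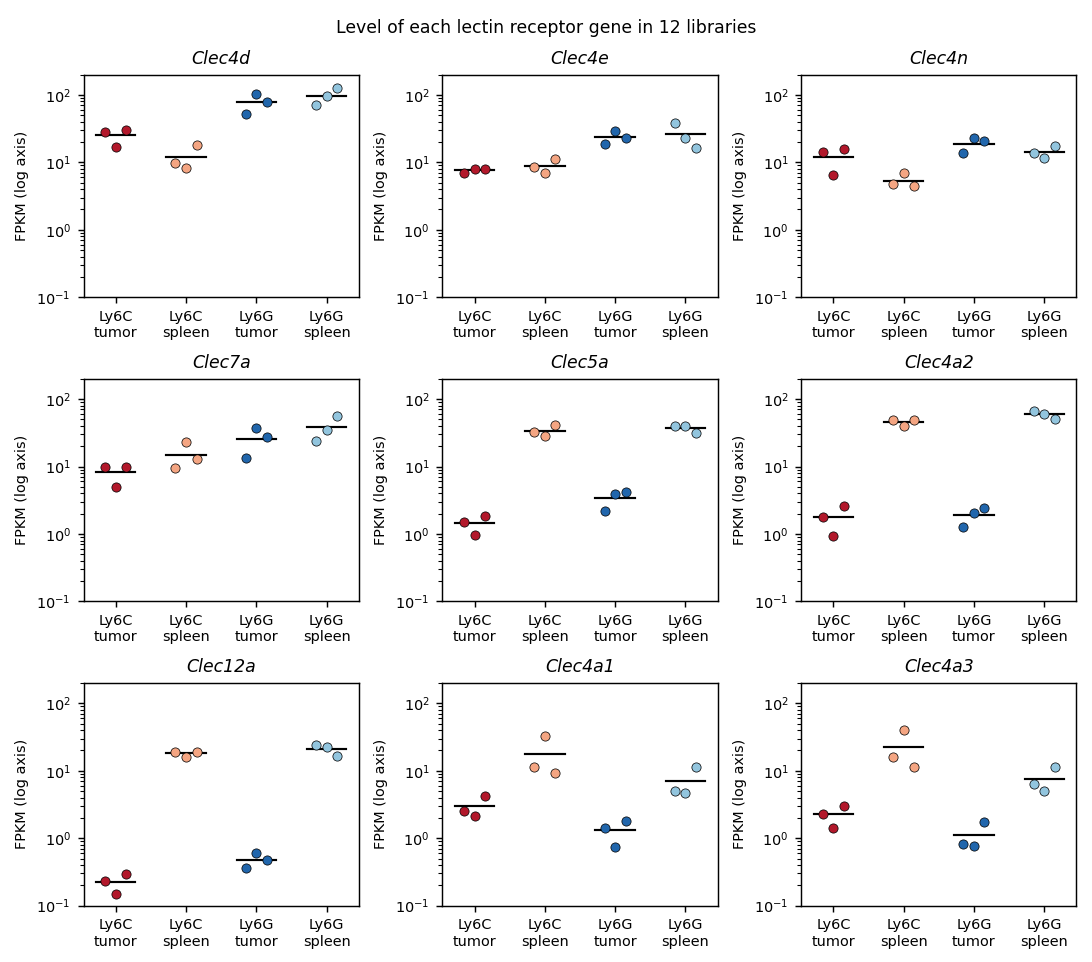
FPKM of each receptor gene (vertical log axis) in the 3 libraries of each group, with a bar at the group mean. Clec5a, Clec4a2 and Clec12a separated tumor from spleen under both labels, whereas Clec4e overlapped between the tissues and stood higher under Ly6G.

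Among the activating receptors, Clec4d, Clec4e, Clec4n and Clec7a overlapped in level between tumor and spleen libraries under both labels. Clec4d encodes MCL, which pairs with Mincle. It had 28.2, 17.0 and 30.0 FPKM in Ly6C tumor libraries, against 9.63, 8.38 and 17.99 in Ly6C spleen libraries. It had 51.6, 101 and 78.5 FPKM in Ly6G tumor libraries, against 71.4, 95.3 and 125 in Ly6G spleen libraries. In Ly6C, 2 tumor libraries lay above all spleen libraries and the lowest tumor library lay just under the highest spleen library. The Ly6C difference was 1.04 ± 0.33 (SE; adjusted p = 0.0132, limma), a 2.09-fold ratio of mean FPKM. The call was lost without the second Ly6C spleen library (0.84, adjusted p = 0.0549) or without the third Ly6C tumor library (0.89, 0.0511), and with median-of-ratios factors (0.77, 0.0682). After the pan-leukocyte rescaling it was 4.60. In Ly6G the difference was -0.35 ± 0.33 (adjusted p = 0.355). It passed as lower with median-of-ratios factors (-0.86, adjusted p = 0.0475) and was 2.42 after the pan-leukocyte rescaling.

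Clec4n encodes Dectin-2, a receptor for mannans. It had 14.1, 6.42 and 15.5 FPKM in Ly6C tumor libraries, against 4.70, 6.89 and 4.46 in Ly6C spleen libraries. It had 13.7, 22.7 and 20.6 FPKM in Ly6G tumor libraries, against 13.6, 11.7 and 17.2 in Ly6G spleen libraries. The second Ly6C tumor library sat inside the spleen range and the other 2 above it. The rise in Ly6C was 0.97 ± 0.29 (adjusted p = 0.00998, limma), a 2.24-fold ratio of means, and passed without any single library but not without both tumor libraries numbered 3 (0.76, adjusted p = 0.0605). It was 4.28 after the pan-leukocyte rescaling. The Ly6G difference was 0.38 ± 0.29 (adjusted p = 0.253). It turned to -0.10 with median-of-ratios factors and passed at 0.71 (adjusted p = 0.0375) with an equal sum per library, and was 2.95 after the pan-leukocyte rescaling.

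Clec4e encodes Mincle, a receptor for mycobacterial glycolipid and for the nuclear protein SAP130 released by dead cells. It had 6.98, 8.07 and 7.84 FPKM in Ly6C tumor libraries, against 8.45, 6.98 and 11.1 in Ly6C spleen libraries. It had 18.9, 29.0 and 23.1 FPKM in Ly6G tumor libraries, against 38.2, 23.2 and 16.3 in Ly6G spleen libraries. Tumor and spleen overlapped under both labels. The differences were -0.17 with a 95% interval of -0.75 to 0.41 in Ly6C and -0.06 with an interval of -0.64 to 0.52 in Ly6G, and they became 3.25 and 2.59 after the pan-leukocyte rescaling.

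Clec7a encodes Dectin-1, the receptor for fungal beta-glucan. It had 9.72, 4.90 and 9.91 FPKM in Ly6C tumor libraries, against 9.41, 22.8 and 12.7 in Ly6C spleen libraries. It had 13.5, 37.3 and 27.1 FPKM in Ly6G tumor libraries, against 24.1, 34.7 and 56.1 in Ly6G spleen libraries. The groups overlapped under both labels, with the lowest value in a tumor library each time. The differences were -0.77 ± 0.42 in Ly6C (adjusted p = 0.12) and -0.57 ± 0.42 in Ly6G (0.24). With median-of-ratios factors both passed as lower, at -1.01 (adjusted p = 0.0425) and -1.07 (0.0342), and after the pan-leukocyte rescaling they were 2.74 and 2.12.

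Clec5a is the activating receptor that fell. It encodes MDL-1, which signals through DAP12 and DAP10. It had 1.51, 0.976 and 1.82 FPKM in Ly6C tumor libraries, against 32.5, 28.7 and 40.8 in Ly6C spleen libraries. It had 2.22, 3.91 and 4.14 FPKM in Ly6G tumor libraries, against 39.5, 40.5 and 31.0 in Ly6G spleen libraries. Every tumor library lay far below every spleen library. The differences were -3.85 ± 0.21 (adjusted p = 1.28e-08, limma) and -3.12 ± 0.21 (8.05e-08), with mean FPKM 23.7-fold and 10.8-fold lower in tumor. After the pan-leukocyte rescaling the Ly6C difference was -0.67 and passed (adjusted p = 0.0475), and the Ly6G difference was -0.60 and did not (0.0746).

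Both inhibitory receptors fell under both labels. Clec4a2, which encodes DCIR, had 1.77, 0.947 and 2.60 FPKM in Ly6C tumor libraries, against 48.2, 39.9 and 49.1 in Ly6C spleen libraries. It had 1.25, 2.03 and 2.41 FPKM in Ly6G tumor libraries, against 66.6, 60.5 and 50.2 in Ly6G spleen libraries. The falls were -4.11 ± 0.22 (adjusted p = 1.22e-08, limma) in Ly6C and -4.39 ± 0.22 (8.56e-09) in Ly6G, the lowest of the 9 genes in both comparisons, at percentiles 0.8 and 0.5 of all genes tested. Mean FPKM was 25.8-fold and 31.2-fold lower in tumor libraries. They stayed lower after the pan-leukocyte rescaling, at -0.87 (adjusted p = 0.0112) and -1.95 (2.15e-06).

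Clec12a encodes MICL, an inhibitory receptor for uric acid crystals of dead cells. It had 0.232, 0.151 and 0.300 FPKM in Ly6C tumor libraries, against 19.1, 15.9 and 19.3 in Ly6C spleen libraries. It had 0.356, 0.595 and 0.475 FPKM in Ly6G tumor libraries, against 24.1, 22.1 and 16.4 in Ly6G spleen libraries. All 6 tumor libraries were under 1 FPKM, so this gene passed the expression filter through its spleen libraries alone. The falls were -3.95 ± 0.14 (adjusted p = 5.04e-10, limma) in Ly6C and -3.88 ± 0.14 (6.62e-10) in Ly6G. On the linear scale they were the largest of the 9 genes, with mean FPKM 79.5-fold lower in Ly6C tumor and 43.9-fold lower in Ly6G tumor libraries. After the pan-leukocyte rescaling the differences were -1.75 (adjusted p = 7.08e-06) and -1.88 (3.14e-06).

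Clec4a1 and Clec4a3 encode DCIR4 and DCIR3, paralogs of DCIR. Clec4a1 had 2.49, 2.12 and 4.26 FPKM in Ly6C tumor libraries, against 11.2, 32.3 and 9.40 in Ly6C spleen libraries. It had 1.41, 0.744 and 1.79 FPKM in Ly6G tumor libraries, against 4.98, 4.69 and 11.4 in Ly6G spleen libraries. One library in each spleen group, the second of Ly6C and the third of Ly6G, was higher than the other 2. Clec4a3 had 2.30, 1.41 and 3.03 FPKM in Ly6C tumor libraries, against 16.1, 40.0 and 11.4 in Ly6C spleen libraries. It had 0.828, 0.768 and 1.75 FPKM in Ly6G tumor libraries, against 6.39, 5.04 and 11.3 in Ly6G spleen libraries. The same 2 spleen libraries were the highest.

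Clec4a1 was lower in tumor, at -2.07 ± 0.43 in Ly6C (adjusted p = 0.00083, limma) and -1.72 ± 0.43 in Ly6G (0.00299), and at 1.24 and 0.31 after the pan-leukocyte rescaling. Clec4a3 was lower, at -2.70 ± 0.40 (adjusted p = 7.03e-05) and -1.98 ± 0.40 (0.000784), and at 0.57 and 0.01 under that rescaling. Of these 4 rescaled values the one for Clec4a1 in Ly6C passed as higher (adjusted p = 0.00587), but all 4 lay below the median of all genes under the same rescaling. Against it Clec4a1 was at -1.95 and -2.03, and Clec4a3 at -2.62 and -2.32. The second Ly6C spleen library had the highest summed FPKM of 9 monocyte genes, at 699 against 384 and 442 in the other 2, and of 10 macrophage genes, at 380 against 170 and 334. The third Ly6G spleen library had the highest macrophage sum, at 658 against 282 and 484, but the lowest monocyte sum, at 321 against 346 and 365. Whether these cells contributed to the high Clec4a1 and Clec4a3 values of those libraries was not tested.

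**Figure D2:**
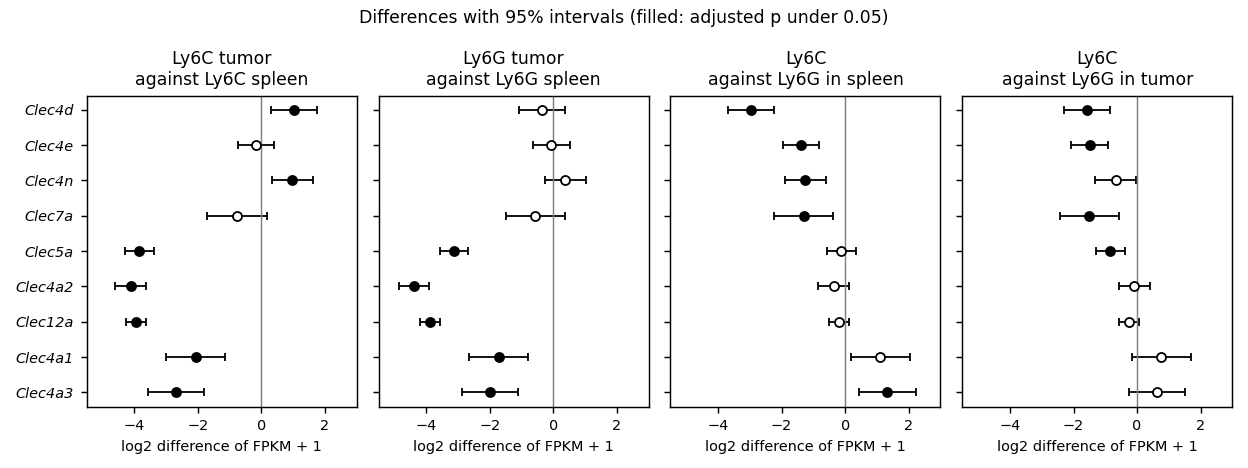
Log2 differences of FPKM + 1 (horizontal axis) for the 9 genes in 4 comparisons, with unadjusted 95% intervals and filled points where the adjusted p was under 0.05. The fall of Clec5a, Clec4a2 and Clec12a in tumor lay between -4.39 and -3.12 under both labels, and that of Clec4a1 and Clec4a3 between -2.70 and -1.72.

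Whether the tumor effect differed between Ly6C and Ly6G was tested for each gene, and none of the 9 passed, against 21.8% of all genes tested. Clec4d came closest, with a tissue effect 1.38 ± 0.47 higher in Ly6C than in Ly6G (adjusted p = 0.0548, limma; unadjusted p = 0.0126). It passed without the third Ly6C spleen library (1.69), the second Ly6C tumor library (1.63), the first Ly6G spleen library (1.58) or the second Ly6G tumor library (1.603), at adjusted p between 0.0208 and 0.0476. Clec5a was at -0.72 ± 0.29 (adjusted p = 0.10) and passed without the first Ly6G tumor library (-0.94, 0.0331). At an unadjusted p under 0.05 these were the only 2 of the 9 genes. Clec4d also passed with median-of-ratios factors (1.63, adjusted p = 0.0396), with a filter of 5 FPKM in 3 libraries (1.38, 0.0461) and after the pan-leukocyte rescaling (2.18, 0.012), and Clec5a with an equal sum per library (-1.14, 0.00784). Whether the tissue effects of Clec4d and Clec5a differ between the labels thus depended on these choices.

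Between the labels in spleen, Ly6C libraries had lower levels of 4 receptor genes and a higher level of 1 than Ly6G libraries. Of all genes tested, 8.59% were lower and 22.1% higher. The 4 were the activating receptors Clec4d, Clec4e, Clec4n and Clec7a, and in each of them all 3 Ly6C libraries lay below all 3 Ly6G libraries, a pattern seen in 13% of all genes tested. The inhibitory receptor gene Clec4a2 had this pattern too but did not pass. Clec4d differed by -2.95 ± 0.33 (adjusted p = 0.000174, limma), where the mean was 12 ± 5.2 FPKM under Ly6C and 97.3 ± 27.0 under Ly6G (SD, n = 3 each). Clec4e differed by -1.39 ± 0.26 (adjusted p = 0.00256) and Clec4n by -1.26 ± 0.29 (0.00783). Clec7a differed by -1.30 ± 0.42 (adjusted p = 0.037), but missed the threshold without the first or the third Ly6C spleen library (-1.04 and -1.24) or the second or the third Ly6G spleen library (-1.33 and -0.99), at adjusted p between 0.0745 and 0.132. It also missed it without the expression filter, with an equal sum per library, with 2 groups fitted at a time and without both tumor libraries numbered 3, at adjusted p of 0.0968, 0.0762, 0.0763 and 0.0629. Under the pan-leukocyte rescaling only the Clec4d call remained among the 4. The differences that missed it stayed near their deposited values, at -1.20 for Clec4e, -1.01 for Clec4n and -1.17 for Clec7a. Calls were lost over all genes as well, with 93 lower under this rescaling against 1169 in the deposited values.

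Clec4a3 was the 1 gene higher in Ly6C spleen, with all 3 libraries above those of Ly6G spleen, as in 29% of all genes tested, and a difference of 1.33 ± 0.40 (adjusted p = 0.028, limma). It missed the threshold without the second Ly6C spleen library (0.83, adjusted p = 0.0869), the first Ly6G spleen library (1.25, 0.0776) or the second Ly6G spleen library (1.11, 0.0959). It also missed it without the expression filter (adjusted p = 0.0769), with quantile normalization (1.10, 0.0562) and with 2 groups fitted at a time (0.116). Its neighbour Clec4a1 differed by 1.11 ± 0.43 (adjusted p = 0.0698), with overlapping groups, and passed without the third Ly6C spleen library (1.43, 0.0342) or the third Ly6G spleen library (1.47, 0.0299), and with an equal sum per library (1.40, 0.0196). Clec5a, Clec4a2 and Clec12a differed by -0.12, -0.36 and -0.19 between the labels in spleen, with 95% intervals of -0.58 to 0.33, -0.84 to 0.12 and -0.50 to 0.13. Among the monocyte genes 5 of 9 were higher in Ly6C spleen, led by F13a1, the A subunit of coagulation factor XIII, at 54.0 ± 29.3 FPKM in Ly6C against 2.04 ± 0.110 in Ly6G. The monocyte genes' summed FPKM was 384 to 699 in Ly6C spleen and 321 to 365 in Ly6G spleen libraries. All 8 B cell genes were lower in Ly6C spleen, with sums of 255 to 392 FPKM against 749 to 1299.5 in Ly6G spleen libraries. The part of these cells in the receptor differences in spleen was not tested.

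In tumor, Ly6C libraries had lower levels of Clec4d, Clec4e, Clec7a and Clec5a than Ly6G libraries and a higher level of none. Of all genes tested 8.7% were lower and 5.8% higher. At an unadjusted p under 0.05 the count of higher receptor genes was also 0. Clec4d averaged 25.1 ± 7.05 FPKM in Ly6C tumor and 77.1 ± 24.9 in Ly6G tumor libraries, a difference of -1.57 ± 0.33 (adjusted p = 0.0129, limma) that missed the threshold without the second Ly6C tumor library (-1.32, 0.0534). Clec4e averaged 7.63 ± 0.576 FPKM in Ly6C tumor and 23.7 ± 5.07 in Ly6G tumor libraries, a difference of -1.50 ± 0.26 (adjusted p = 0.00582) that passed without any single library. Clec7a differed by -1.50 ± 0.42 (adjusted p = 0.0386) and Clec5a by -0.85 ± 0.21 (0.0234). All 3 Ly6C tumor libraries lay below all Ly6G tumor libraries in these 4 genes and in Clec12a, as in 18.2% of all genes tested. In Clec4a1 they all lay above, as in 24.1%. Clec7a missed the threshold without any 1 of the 3 Ly6C tumor libraries or without the second or the third Ly6G tumor library, at adjusted p between 0.0639 and 0.127. Clec5a missed it without the first or second Ly6C tumor library or the second or the third Ly6G tumor library, at adjusted p between 0.0523 and 0.0897, and with a pseudocount of 5 (-0.38, 0.0751). Both missed it without the expression filter (adjusted p = 0.0929 for Clec7a and 0.0537 for Clec5a), and Clec7a with 2 groups fitted at a time (0.0544). Without both tumor libraries numbered 3 none of the 4 passed, at adjusted p between 0.0697 and 0.185.

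Ly6C tumor libraries also had the lower pan-leukocyte mean, and under that rescaling none of these 4 differences passed (-0.55, -0.54, -0.55 and -0.16 for Clec4d, Clec4e, Clec7a and Clec5a). Against the median of all genes under it, 0.997, these 4 stood at -1.55, -1.54, -1.55 and -1.16. Against the deposited median they stood at -1.61, -1.53, -1.54 and -0.88. Clec4a1, Clec4a3 and Clec4a2 passed as higher in Ly6C tumor after the rescaling, at 1.88, 1.71 and 0.76, as did 8972 of the 13610 genes tested. Against the rescaled median they were at 0.88, 0.71 and -0.24. In the deposited values Clec4a1, Clec4a3 and Clec4a2 differed by 0.76 ± 0.43, 0.62 ± 0.40 and -0.09 ± 0.22 and did not pass. Clec4n differed by -0.67 ± 0.29 (adjusted p = 0.141) and Clec12a by -0.26 ± 0.14 (0.23). With a pseudocount of 0.1 in place of 1, Clec12a passed as lower in Ly6C tumor (-0.82, adjusted p = 0.0354).

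The order of the genes by level, on the length-normalized FPKM scale, differed between the tissues. In Ly6C tumor libraries the mean levels ran Clec4d 25.1, Clec4n 12, Clec7a 8.18, Clec4e 7.63, Clec4a1 2.96, Clec4a3 2.25, Clec4a2 1.77, Clec5a 1.44 and Clec12a 0.227 FPKM. The neighbours in that order overlapped between libraries except at Clec4d over Clec4n, Clec4e over Clec4a1 and Clec5a over Clec12a. In Ly6C spleen libraries the order was Clec4a2 45.7, Clec5a 34.0, Clec4a3 22.5, Clec12a 18.1, Clec4a1 17.6, Clec7a 15, Clec4d 12, Clec4e 8.83 and Clec4n 5.35 FPKM. There the neighbours overlapped except at Clec4e over Clec4n.

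In Ly6G tumor libraries the order was Clec4d 77.1, Clec7a 26, Clec4e 23.7, Clec4n 19.0, Clec5a 3.43, Clec4a2 1.90, Clec4a1 1.32, Clec4a3 1.12 and Clec12a 0.475 FPKM. Gaps without overlap lay below Clec4d, below Clec4n and above Clec12a. In Ly6G spleen libraries it was Clec4d 97.3, Clec4a2 59.1, Clec7a 38.3, Clec5a 37.0, Clec4e 25.9, Clec12a 20.9, Clec4n 14.2, Clec4a3 7.59 and Clec4a1 7.02 FPKM. Gaps without overlap lay below Clec4d and below Clec4n. Clec4d was thus the highest of the 9 genes in 3 of the 4 groups and ranked 7 of 9 in Ly6C spleen.

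The make-up of the summed receptor transcripts showed the same contrast. Clec4d, Clec4e, Clec4n and Clec7a, grouped here after their values were seen, made up 84.0% to 87.7% of the summed FPKM of the 9 genes in Ly6C tumor libraries, against 20.2% to 26.2% in Ly6C spleen libraries. They made up 93.4% to 95.9% in Ly6G tumor libraries, against 51.0% to 64.1% in Ly6G spleen libraries. A share of this kind is a ratio within a library, so it does not move with the scaling between libraries, but it shows unequal change and not which genes changed. The summed FPKM of the 9 genes was 42.0 to 75.3 in Ly6C tumor libraries, against 159 to 202 in Ly6C spleen libraries. It was 104 to 198 in Ly6G tumor libraries, against 289 to 335 in Ly6G spleen libraries.

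**Figure D3:**
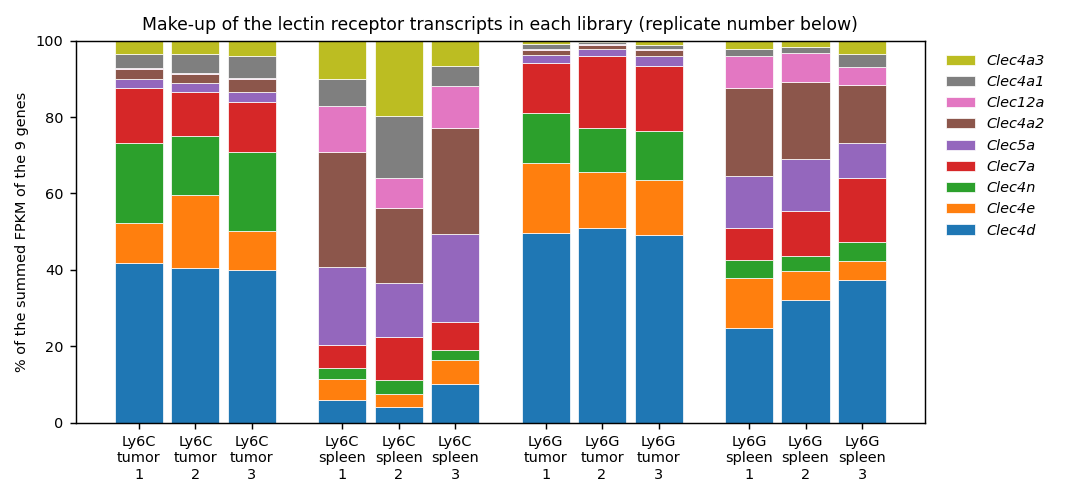
Share of each gene in the summed FPKM of the 9 genes (percent, vertical axis) in each of the 12 libraries. The 4 lower segments, Clec4d, Clec4e, Clec4n and Clec7a, take at least 84.0% in all 6 tumor libraries and at most 64.1% in all 6 spleen libraries.

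Set against the pan-leukocyte mean of the same library, Clec4d stood at 3.06 to 3.73 in Ly6C tumor libraries, against 0.0756 to 0.167 in Ly6C spleen libraries. The ratio was 4.08 to 5.72 in Ly6G tumor libraries, against 0.656 to 1.18 in Ly6G spleen libraries. For Clec12a it was 0.0252 to 0.033 in Ly6C tumor libraries, against 0.143 to 0.189 in Ly6C spleen libraries. It was 0.0247 to 0.0336 in Ly6G tumor libraries, against 0.155 to 0.221 in Ly6G spleen libraries. Relative to leukocyte genes Clec4d was thus higher and Clec12a lower in tumor libraries, with no overlap under either label. Most genes were higher on this scale, where the median log2 difference of all genes was 3.19 in Ly6C and 2.34 in Ly6G. Clec4d lay 1.41 above that median in Ly6C but only 0.08 above it in Ly6G, so its Ly6G rise was near that of the median gene. Clec12a stood at -4.94 and -4.22 against it.

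Across the 12 libraries the genes ran in blocks. These correlations are descriptions over 4 groups of 3, so they carry mostly the differences between groups. Clec4a2, Clec5a and Clec12a correlated with each other at r between 0.986 and 0.996, Clec4a1 with Clec4a3 at 0.987, and Clec4d with Clec4n at 0.827 and with Clec4e at 0.816. Clec4e and Clec4n correlated at 0.568. Clec7a correlated at 0.719 with Clec4d, 0.663 with Clec4e and 0.559 with Clec4n. Clec12a, which lies with Clec7a inside 130.1 kb, correlated with it at 0.39.

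**Figure D4:**
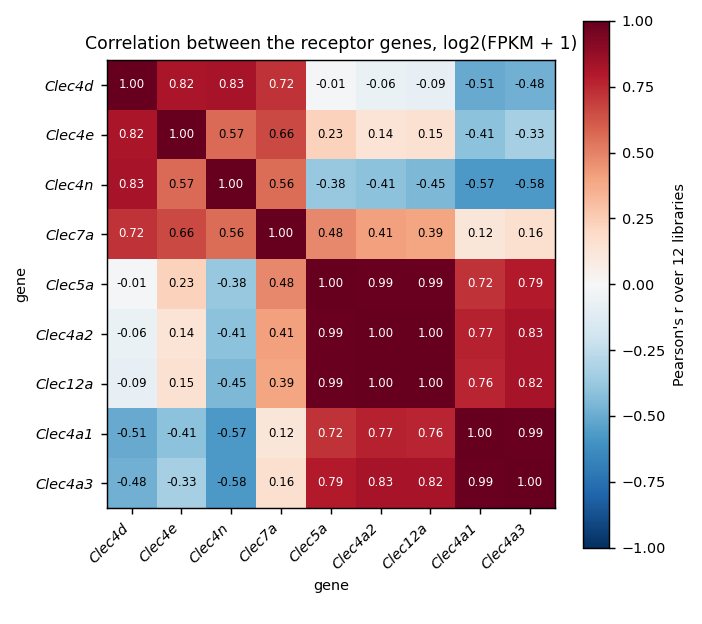
Pearson's r of log2(FPKM + 1) between the 9 genes over 12 libraries, as a colour scale between -1 and 1 with each value printed. Clec5a, Clec4a2 and Clec12a form one block at 0.986 or above, Clec4a1 and Clec4a3 a pair at 0.987, and Clec4d, Clec4e, Clec4n and Clec7a a looser block at 0.559 to 0.827.

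The genes most alike in pattern were taken as the 3 of highest r for each receptor gene. Predicted genes (Gm and Rik names), genes without a symbol and antigen receptor segments were left out. For Clec4d these were Gpat3 (0.970), an acyltransferase of lipid synthesis, Arg2 (0.969), the mitochondrial arginase, and Il1rap (0.963), the accessory subunit of the interleukin-1 receptor. For Clec4e they were Ptp4a1 (0.946), Il1r2 (0.906), the decoy receptor for interleukin-1, and Stfa2l1 (0.896). For Clec4n they were Bcl2a1b (0.936), a survival gene, mt-Ti (0.926) and Rsad2 (0.920), an interferon-induced antiviral gene. For Clec7a they were Sirpb1b (0.959), Jaml (0.953) and Trpv2 (0.941). Clec4a1 and Clec4a3 were each other's near match and shared Ifi30 (0.985 and 0.990), the lysosomal thiol reductase of antigen processing, with Ms4a4c (0.977) and Pld4 (0.985) as the remaining entries.

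Clec5a, Clec12a and Clec4a2 ran with many more genes. With the same kinds of gene left out, 813, 809 and 741 of the genes tested correlated with them above 0.95. The counts were 3 for Clec4d, 2 for Clec7a, 23 for Clec4a1 and 59 for Clec4a3. The closest genes to Clec5a were Prkcb (0.999), Itgb2 (0.998) and Cib2 (0.998). Those to Clec12a were Traf3ip3, Rgs18 and Arhgap15 (0.998, 0.998 and 0.997), and those to Clec4a2 were Vrk3, Rsph1 and Slc25a45 (0.997, 0.996 and 0.996). Itgb2, the beta chain of leukocyte integrins, is one of the pan-leukocyte genes. These 3 receptor genes thus followed a pattern that many other genes also had.

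The intracellular partners of the receptors were lower in tumor libraries. Of 13 genes for adaptors and the Syk to CARD9 route, 12 were tested, and 11 fell and 1 rose under each label, with a median difference of -2.67 in Ly6C and -1.62 in Ly6G. In all, 30.5% of the genes tested fell and 46.2% rose in Ly6C, and 24.7% fell and 51.5% rose in Ly6G. Card9 fell the most in Ly6C, at -3.96 ± 0.23, to 3.77 ± 1.48 FPKM in Ly6C tumor against 70.7 ± 2.16 in Ly6C spleen libraries (SD, n = 3 each). Hcst fell the most in Ly6G, at -3.12 ± 0.21, to 7.74 ± 1.52 FPKM in Ly6G tumor against 74.97 ± 13.9 in Ly6G spleen libraries. Cblb, a ubiquitin ligase that restrains this route, rose by 0.69 ± 0.25 in Ly6C and 1.03 ± 0.25 in Ly6G. Of the adaptors the receptors need, Fcer1g averaged 69.1 ± 28.4 FPKM in Ly6C tumor against 565 ± 49.5 in Ly6C spleen, and 156 ± 44.5 in Ly6G tumor against 973 ± 179 in Ly6G spleen libraries. Clec4d was thus higher and its adaptor gene lower in the same Ly6C tumor libraries.

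Between the labels in tumor, 9 of these 12 genes were lower in Ly6C and none higher, against 8.7% and 5.8% of all genes tested. Syk had the largest difference, at -1.70 ± 0.25 (adjusted p = 0.0026, limma). Syk averaged 6.19 ± 1.86 FPKM in Ly6C tumor against 22.5 ± 6.61 in Ly6G tumor libraries. In spleen 2 of the 12 genes were higher in Ly6C, led by Plcg2 (0.73 ± 0.10), and 2 lower, led by Hcst (-1.27 ± 0.21), against 22.1% and 8.59% of all genes tested. The phosphatase genes Ptpn6, Ptpn11 and Inpp5d, which act for the inhibitory receptors, all fell in Ly6C tumor and 2 of the 3 in Ly6G tumor libraries. Ptpn6, for SHP-1, fell the most, at -3.49 ± 0.22 in Ly6C and -2.42 ± 0.22 in Ly6G. The part of the lower pan-leukocyte level in these counts was not tested.

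**Figure D5:**
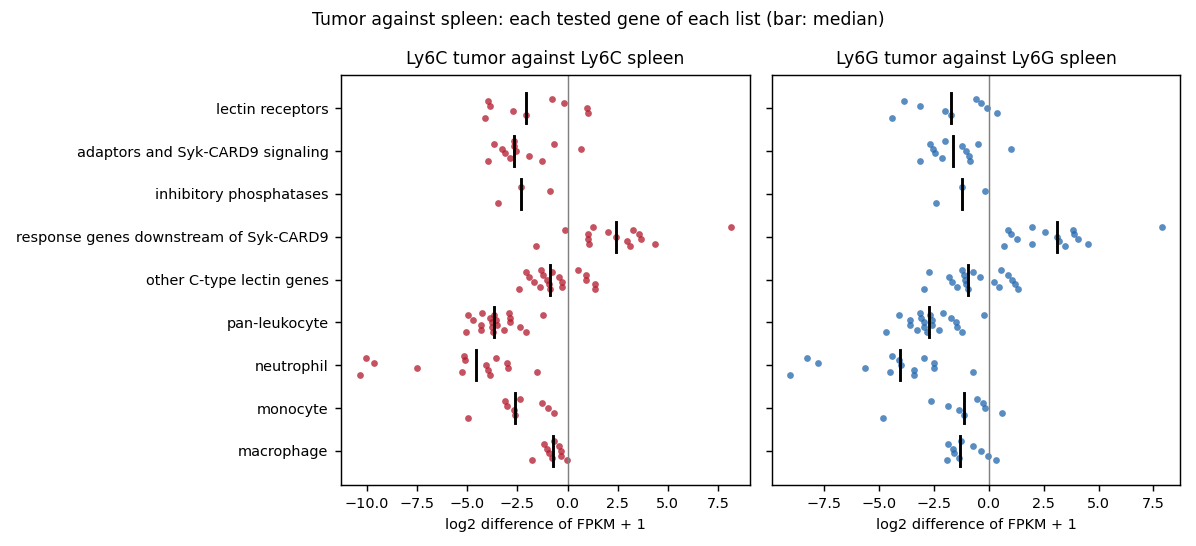
Log2 difference of FPKM + 1 between tumor and spleen (horizontal axis) for each tested gene of each list, with a bar at the list's median, for Ly6C on the left and Ly6G on the right. The receptor genes spread over the range between 1.04 and -4.39, near the pan-leukocyte genes at their low end, while 13 and 15 of the 15 response genes rose.

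Genes that Syk and CARD9 are known to induce were higher in tumor libraries. Of 18 listed, 15 were tested, and 13 rose and 1 fell in Ly6C, and 15 rose in Ly6G, with medians of 2.41 and 3.12. Of all genes tested, 46.2% rose and 30.5% fell in Ly6C, and 51.5% rose and 24.7% fell in Ly6G, with medians of 0.27 and 0.43. The neutrophil chemokine gene Cxcl1 rose the most, to 314 ± 100.3 FPKM in Ly6C tumor against 0.0667 ± 0.0326 in Ly6C spleen, and to 257 ± 77.9 in Ly6G tumor against 0.056 ± 0.0249 in Ly6G spleen libraries. Cxcl1 thus passed the expression filter through its tumor libraries alone and could only rise. Il1a and Il23a averaged 0.285 and 0.0194 FPKM in Ly6C spleen against 4.18 and 8.86 in Ly6C tumor libraries. The counts and medians of this list include such genes, so part of the rise was set by the filter. Tnf, the tumor necrosis factor gene, was the 1 that fell in Ly6C, at -1.57 ± 0.14, and it rose by 0.67 ± 0.14 in Ly6G. The difference of its tissue effects was -2.25 ± 0.20 (adjusted p = 0.000185, limma). Other pathways and other cells also induce these genes, and their source was not tested.

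Of 5 genes for endogenous ligands, 3 rose and 2 fell under each label, shares near those of all genes tested, so the counts are no result about ligand genes. Their medians were 0.25 in Ly6C and 0.92 in Ly6G. Anxa5, an annexin that binds phosphatidylserine on dying cells, rose the most, at 2.15 ± 0.22 in Ly6C and 2.11 ± 0.22 in Ly6G. Anxa1, another annexin and a Dectin-1 ligand, fell the most, at -2.44 ± 0.23 and -3.02 ± 0.23. Sap130, whose protein Mincle binds, averaged 14 ± 0.43 FPKM in Ly6C tumor against 11.7 ± 0.575 in Ly6C spleen libraries, and 13.03 ± 0.592 in Ly6G tumor against 6.42 ± 0.610 in Ly6G spleen libraries.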

How the data were processed

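Per the labels' protocols, total RNA of 12 samples was sequenced as paired-end Illumina libraries. GRCm38 is the build, and featureCounts (1.5.0-p3) and HISAT2 (2.0.5) are the tools, per the submitters' processing notes. The tool that computed the expression values is not given in the sources used here. FPKM per gene and library fill the deposited matrix, computed by the authors from fragments and gene length, with no scaling between libraries stated. Fragment counts were not used here, and whole reads could not be recovered from the FPKM, since only 22.7% to 26.3% of low values lay within 0.02 of a multiple of 0.5 steps.

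Symbols came from GENCODE M21. Of 54674 entries, 54104 with an Ensembl identifier were used. Values were transformed as log2(FPKM + 1), and a model of 4 group means was fitted to all 12 libraries in limma 3.58.1 (R 4.3.3, variance trend, 8 residual and 3.4 prior degrees of freedom), two-sided. It gave 5 comparisons. In simulated data with the Ly6C tumor against Ly6C spleen design over 13610 genes, 76% of genes with a log2 change of 1 and 96% of those with 2 were recovered. Only a small part of the genes was changed there, whereas 46.2% rose and 30.5% fell in the real comparison. These rates therefore check the model and do not give the share recovered in the real data. The members and gene lists were chosen with earlier results of these data known, so lists are described by counts and medians without tests. All 9 members were named in every comparison, as were the highest and lowest passing gene of each list in the text and the 3 genes of highest r with each member. Other genes (Fcer1g, Sap130, S100a9, Krt18, Cdh1 and the markers listed at 0) were picked for their role after their values were seen.

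Fits were repeated with 24 alternatives to these choices, 12 of which left out 1 library each. Replicate numbers were not used to pair libraries, since the labels tie no number to an animal. Promoters were read with Python 3.11.15, pandas 2.3.3, numpy 2.4.6 and Biopython 1.88, and figures drawn with matplotlib 3.10.9.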

Additional observations from a re-analysis of the deposited data

How the results depend on the processing

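Each count and each difference of the 9 genes was recomputed under 24 alternatives. Leaving out 1 library at a time kept direction and call in 501 values, while 13 changed sign, 19 lost a call and 7 gained one. Among the other alternatives 464 kept both, 26 changed sign, 27 lost a call and 14 gained one. The falls of Clec5a, Clec4a2 and Clec12a in tumor kept their sign under every alternative run. The cause of the changes below was not tested.

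Without 1 library, the count of receptor genes higher in tumor was 1 to 2 in Ly6C and 0 to 0 in Ly6G, and the count lower 5 to 5 under both labels. Over all genes, 5906 to 6477 were higher and 3910 to 4197 lower in Ly6C, and 6631 to 7122 and 3111 to 3431 in Ly6G. In Ly6C against Ly6G the receptor count was 0 to 2 higher and 3 to 4 lower in spleen, and 0 to 0 higher and 1 to 4 lower in tumor. Over all genes it was 2355 to 3164 and 848 to 1157 in spleen, and 79 to 1244 and 631 to 1374 in tumor. For the difference of the tissue effects the receptor count was 0 to 1 in either direction. Over all genes it was 507 to 1095 higher and 1588 to 2100 lower. Clec4e spanned -0.34 to 0.25 in Ly6G tumor against spleen, and Clec4a2 -0.30 to 0.15 in Ly6C against Ly6G in tumor. The difference of the tissue effects spanned -0.185 to 0.0761 for Clec12a, -0.71 to 0.17 for Clec4a1, -0.42 to 0.17 for Clec4e and -0.59 to 0.13 for Clec7a. Without both tumor libraries numbered 3, the count higher in Ly6C tumor was 0, and the count lower in Ly6C than in Ly6G tumor was 0. Over all genes these counts were 6048 and 251.

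The count higher in Ly6C spleen than in Ly6G spleen was 0 without the expression filter, with quantile normalization and with 2 groups fitted at a time. The last of these gives no difference of tissue effects. Over all genes the 3 counts were 2703 of 30674, 1931 of 13610 and 1838 of 13610. Without the filter 2 receptor genes were lower in Ly6C than in Ly6G tumor, beside 1010 of 30674 genes. Requiring 5 FPKM in 3 libraries gave 1 gene, Clec4d, a higher tissue effect in Ly6C (1.38, adjusted p = 0.0461), beside 656 of 8354 genes. For Clec12a that difference was 0.0899 with a pseudocount of 5 and 0.29 with quantile normalization.

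With an equal sum per library, 1 gene (Clec4n) was higher in Ly6G tumor, 2 were higher in Ly6C than in Ly6G spleen, and 1 (Clec5a) had a lower tissue effect in Ly6C. Of the 13610 genes tested, these counts were 8152, 5380 and 4520. Clec4e became 0.27 in Ly6G tumor against spleen. Clec5a became 0.19 and Clec12a 0.12 in Ly6C against Ly6G in spleen, and Clec4a2 -0.13 for the difference of tissue effects. With median-of-ratios factors, 1 gene was higher in Ly6C tumor, 1 (Clec4d) had a higher tissue effect in Ly6C, and Clec4n became -0.10 in Ly6G tumor against spleen. Over all genes 5490 were higher in Ly6C tumor and 1777 had a higher tissue effect in Ly6C. The difference of tissue effects became 0.14 for Clec4e, 0.0595 for Clec7a and 0.17 for Clec12a.

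With the pan-leukocyte rescaling, 5 receptor genes were higher and 3 lower in Ly6C tumor, and 4 higher and 2 lower in Ly6G tumor. Of the 13610 genes tested, 12368 were higher and 479 lower in Ly6C tumor, and 12162 and 512 in Ly6G tumor. The share of receptor genes that were higher was thus below that of all genes. In Ly6C against Ly6G, 0 receptor genes were higher and 1 lower in spleen, beside 93 and 93 of all genes. In tumor 3 were higher and 0 lower, beside 8972 and 196 of all genes. A higher tissue effect in Ly6C was called for 1 receptor gene and for 883 of all genes. The values that changed sign were 3.25 for Clec4e, 1.24 for Clec4a1, 0.57 for Clec4a3 and 2.74 for Clec7a in Ly6C tumor against spleen. In Ly6G tumor against spleen they were 2.42 for Clec4d, 2.59 for Clec4e, 0.31 for Clec4a1, 0.0146 for Clec4a3 and 2.12 for Clec7a. In Ly6C against Ly6G in tumor they were 0.32 for Clec4n and 0.76 for Clec4a2. For the difference of tissue effects they were 0.66 for Clec4e, 0.94 for Clec4a1, 0.55 for Clec4a3, 0.62 for Clec7a and 0.13 for Clec12a.

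With the replicate number as a block, 1 gene, Clec4d, had a higher tissue effect in Ly6C (1.38, adjusted p = 0.04), and the block changed no other call of the 9 genes. Over all genes 721 had a higher tissue effect in Ly6C with the block. Same-numbered libraries deviated from their group means with r between -0.36 and 0.279, over 0.1 in 5 of 18 pairs, so the numbers were not taken to pair libraries. Depth limits the low values: fragment counts are unknown, so no counting interval can be given for Clec12a in tumor.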

Other observations

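Transcription factor genes of myeloid cells split in tumor libraries. Of 7 tested, 1 rose and 5 fell in Ly6C, and 3 rose and 4 fell in Ly6G, with medians of -1.71 and -1.61. Over all genes, 46.2% rose and 30.5% fell in Ly6C, and 51.5% rose and 24.7% fell in Ly6G. Cebpe, a factor of granule gene expression in maturing granulocytes, fell the most. It averaged 2.90 ± 0.917 FPKM in Ly6C tumor against 657 ± 140 in Ly6C spleen libraries, and 6.17 ± 3.82 in Ly6G tumor against 262 ± 28.6 in Ly6G spleen libraries (SD, n = 3 each). Its differences were -7.40 ± 0.31 (SE; adjusted p = 1.66e-09, limma) and -5.32 ± 0.31 (2.75e-08). Hif1a, the oxygen-sensitive subunit of the hypoxia factor, rose under both labels, to 45.4 ± 6.77 FPKM in Ly6C tumor against 7.55 ± 1.12 in Ly6C spleen, and to 45.5 ± 7.87 in Ly6G tumor against 11.9 ± 5.71 in Ly6G spleen libraries. Cebpa, a factor of early myeloid differentiation, fell by 1.33 ± 0.35 in Ly6C tumor (adjusted p = 0.00395, limma) and rose by 1.27 ± 0.35 in Ly6G tumor libraries (0.00537). Its tissue effects differed by -2.60 ± 0.49 (adjusted p = 0.00428, limma), with the Ly6C effect the lower.

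Of 29 other C-type lectin genes 19 were tested, and 3 rose and 11 fell in Ly6C tumor and 6 rose and 10 fell in Ly6G tumor libraries. Among all genes tested, 46.2% rose and 30.5% fell in Ly6C, and 51.5% rose and 24.7% fell in Ly6G. The medians of the lectin list were -0.89 and -0.96, beside 0.27 and 0.43 over all genes tested. Mrc2, the collagen-binding receptor Endo180, rose the most, to 1.68 ± 0.327 FPKM in Ly6C tumor against 0.0268 ± 0.0289 in Ly6C spleen, and to 1.68 ± 0.529 in Ly6G tumor against 0.064 ± 0.0614 in Ly6G spleen libraries. Mrc2 thus passed the expression filter through its tumor libraries alone and could only rise. Olr1, the receptor LOX-1 for oxidized lipoprotein, moved in opposite directions. It averaged 0.686 ± 0.0734 FPKM in Ly6C tumor against 2.96 ± 0.670 in Ly6C spleen, and 2.46 ± 0.518 in Ly6G tumor against 1.38 ± 0.245 in Ly6G spleen libraries. Its tissue effects differed by -1.76 ± 0.21 (adjusted p = 0.00062, limma). Clec4a4, a paralog of DCIR, was listed at 0 in all Ly6G tumor libraries, and averaged 5.64 ± 1.49 FPKM in Ly6G spleen libraries. It averaged 0.065 ± 0.0631 FPKM in Ly6C tumor and 0.574 ± 0.912 in Ly6C spleen libraries.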
